A study of Mus musculus with 3 samples.

Results

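The 10 genes described here encode enzymes that make fatty acids from citrate or start glycerides, a regulator, and a protein of lipogenic tissues. They are Fasn, Acaca, Acacb, Acly, Elovl6, Scd1, Thrsp, Gpam, Srebf1 and Me1. Each was taken from the deposited gene table by its symbol, and all 10 were found, each in 1 row, among 46951 loci. The RNA came from male C57BL/6j mice, whose inguinal lymph nodes gave 1 sequencing library per treatment. The mice had been injected intraperitoneally with 20(OH)D3 at 4 µg/kg per day, with 25(OH)D3 at 4 µg/kg per day, or with the ethanol vehicle. All groups, vehicle included, had first been painted on the abdominal skin with DNFB, a contact sensitizer. The sample labels give 4 daily injections from day 3 after DNFB and collection 24 hours after the last, while the series text gives 1 week of treatment. Both compounds are vitamin D3 with a hydroxyl group added to the side chain, at a different carbon in each. The sources used here do not say how many mice went into a library.

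Fatty acid synthesis runs in the cytosol on carbon that leaves the mitochondrion as citrate. ATP citrate lyase (Acly) splits it into acetyl-CoA, the acetyl-CoA carboxylases (Acaca, Acacb) turn that into malonyl-CoA, and fatty acid synthase (Fasn) joins the units into palmitate with NADPH, part of which malic enzyme (Me1) supplies. Elovl6 lengthens palmitate, Scd1 puts in a double bond, and the acyltransferase Gpam starts glyceride assembly. The transcription factor SREBP1 (Srebf1) drives most of these genes, and Thrsp (Spot 14) is a small protein of lipogenic tissues. The pathway is most active in fat, liver and lactating mammary gland, and inguinal nodes lie within a fat pad.

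Total reads, recovered from the deposited values, were 7522550 with 20(OH)D3, 7991748 with 25(OH)D3 and 8226431 with vehicle. Differences are given as ratios of normalized counts, which are reads multiplied by a library factor, with exact 95% intervals that cover counting error only. Since every treatment has a single library, nothing here has a replicate check and no test could be run, and the values are those of 3 libraries. The nodes carried lymphocyte messages, with summed normalized counts of 6 T cell markers of 8615, 11611 and 11211 and of 5 B cell markers of 22843, 25710 and 24532 in the 20(OH)D3, 25(OH)D3 and vehicle libraries. They also carried fat. The 10 adipocyte markers summed to 105069, 49078 and 25982 normalized counts in the same order, none of them at 0. The 4 macrophage markers summed to 6816, 4049 and 4351 normalized counts. Epithelial markers summed to 46.2, 62.4 and 60.9 normalized counts, with Krt5 at 0 in all 3 libraries. The 3 hepatocyte markers summed to 26.2, 9.05 and 8.44 normalized counts, all from Alb (25, 9 and 9 reads), with Apoa1 and Ttr at 0 throughout. The count ratio of Alb for 20(OH)D3 over vehicle was 3.11 (1.403 to 7.57).

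Together the 10 genes took 0.555% of reads in the 20(OH)D3 library (exact 95% interval 0.549% to 0.560%), 0.682% in the 25(OH)D3 library (0.677% to 0.688%) and 0.441% in the vehicle library (0.436% to 0.445%). Scd1 and Fasn supplied most of these reads. Scd1 had 22911, 28020 and 17308 reads and Fasn 9744, 13839 and 9923 reads in the 20(OH)D3, 25(OH)D3 and vehicle libraries. Both were highest with 25(OH)D3.

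Per transcript length, as FPKM, the levels spanned a range from the desaturase and the synthase down to the elongase and the acyltransferase. Fasn stood at 460 FPKM with 20(OH)D3, 850 FPKM with 25(OH)D3 and 413 FPKM with vehicle. Scd1 stood at 593, 696 and 400 FPKM in the same order of libraries. Scd1 led in the 20(OH)D3 library and Fasn in the other two. Thrsp was the third of the genes in every library, at 217, 310 and 132 FPKM, and Acly the fourth, at 88.8, 164 and 105 FPKM. Srebf1 (60.8, 55.7 and 52.1 FPKM) and Me1 (44.5, 83.7 and 42.3 FPKM) followed, with Me1 ahead of Srebf1 only in the 25(OH)D3 library. The carboxylases lay close together, Acaca at 17.6, 25.4 and 16.3 FPKM and Acacb at 17.9, 20.0 and 14.3 FPKM. Elovl6 (5.86, 16.1 and 8.47 FPKM) and Gpam (6.66, 3.17 and 5.96 FPKM) were lowest and changed places in the 20(OH)D3 library. Among all loci ranked by FPKM, Fasn stood at rank 166, 105 and 160 and Gpam at rank 9017, 11066 and 9260. The spread between animals is unknown, so neighbours in this order cannot be told apart beyond it.

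**Figure D1:**
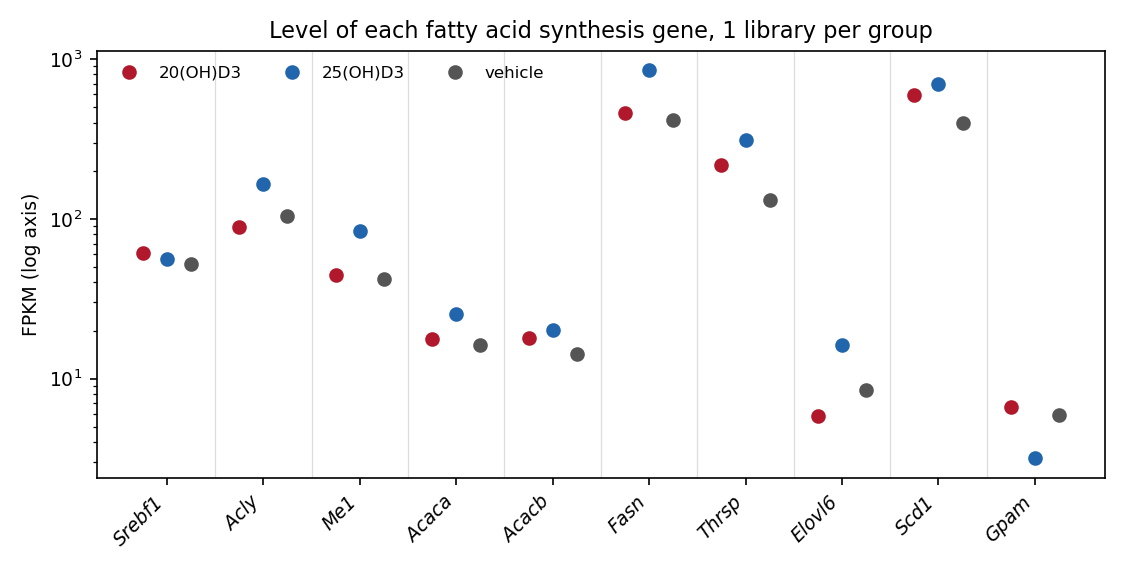
FPKM (log axis) of each of the 10 genes, 1 point per library, with 20(OH)D3 at the left, 25(OH)D3 in the middle and vehicle at the right of each column. The 25(OH)D3 point is highest for every gene other than Srebf1 and Gpam, from 850 FPKM for Fasn to 16.1 FPKM for Elovl6.

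In GENCODE M21 (GRCm38), Fasn lies on chromosome 11 from 120805846 to 120824547, minus strand. Acly (100476353 to 100528000, minus strand), Acaca (84129672 to 84401651, plus strand) and Srebf1 (60199089 to 60222581, minus strand) share that chromosome. Scd1 (44394455 to 44407879, minus strand) and Gpam (55067268 to 55127238, minus strand) lie on chromosome 19. Acacb is on chromosome 5 (114146535 to 114250761, plus strand), Elovl6 on chromosome 3 (129532355 to 129638495, plus strand), Thrsp on chromosome 7 (97412938 to 97417730, minus strand) and Me1 on chromosome 9 (86581371 to 86695953, minus strand). The last bases of Srebf1 overlap Rai1 on the opposite strand. Its row in the table also names the microRNA gene Mir6922 and gives a locus that begins at 60105013, the start of Rai1, which has a row of its own. The rows of Elovl6 (from 129527467) and Me1 (to 86701253) also reach past the GENCODE gene. The Gpam row spans 55069734 to 55099451, which are the ends of the transcript Gpam-201, 1 of 5 transcripts that GENCODE lists for the gene.

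RefSeq promoter sequences (GRCm38.p6) were matched for 9 of the 10 genes, with 13 start sites. Scd1 was not matched. The 250 bases before the start are shown for Fasn, the synthase at the centre of the pathway, for Thrsp, which had the highest ratio of 25(OH)D3 to vehicle, for Elovl6, on which the compounds differed most, and for Gpam, which went against the other genes with 25(OH)D3. They were read 5′ to 3′ on the gene's strand, and capitals mark matches to the motifs searched. Their places are chr11:120824548-120824797 (minus strand), chr7:97417551-97417800 (minus strand), chr3:129532136-129532385 (plus strand) and, for the downstream start of Gpam, chr19:55099478-55099727 (minus strand).
Fasn: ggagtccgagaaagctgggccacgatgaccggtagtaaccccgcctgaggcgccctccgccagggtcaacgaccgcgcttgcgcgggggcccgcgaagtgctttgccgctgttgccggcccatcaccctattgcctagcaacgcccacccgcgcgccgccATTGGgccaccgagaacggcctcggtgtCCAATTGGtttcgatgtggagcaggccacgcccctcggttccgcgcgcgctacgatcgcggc
Thrsp: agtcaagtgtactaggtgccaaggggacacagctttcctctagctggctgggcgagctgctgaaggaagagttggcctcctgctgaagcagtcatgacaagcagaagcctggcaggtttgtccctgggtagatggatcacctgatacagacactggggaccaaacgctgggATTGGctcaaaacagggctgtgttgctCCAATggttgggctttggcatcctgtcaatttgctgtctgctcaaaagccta
Elovl6: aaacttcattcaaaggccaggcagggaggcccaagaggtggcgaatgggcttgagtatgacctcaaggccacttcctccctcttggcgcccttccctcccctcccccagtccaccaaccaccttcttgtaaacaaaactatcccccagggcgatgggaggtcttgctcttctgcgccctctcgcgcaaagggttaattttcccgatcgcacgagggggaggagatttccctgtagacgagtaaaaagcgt
Gpam: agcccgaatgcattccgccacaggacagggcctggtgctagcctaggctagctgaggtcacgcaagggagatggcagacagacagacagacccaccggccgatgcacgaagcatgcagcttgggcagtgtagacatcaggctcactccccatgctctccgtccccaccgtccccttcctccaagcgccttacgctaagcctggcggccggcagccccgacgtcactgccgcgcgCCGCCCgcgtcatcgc

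Of 7 motifs searched on both strands, from 250 bases before to 50 bases after the start, the CCAAT box (CCAAT) was in the promoters of 7 of the 9 genes, 8 of 13 windows, against 37.4% of all 32851 RefSeq windows. Fasn had 3 matches, beginning 90, 62 and 59 bases before the start (-90, -62 and -59), and the matches at -62 and -59 overlap on opposite strands. Thrsp had CCAAT boxes at -79 and -52. The GC box (GGGCGG) was in windows of 4 genes, Acly, Gpam, Srebf1 and Me1, 5 of 13 windows, against 35.7% of all windows. The TATA box (TATAAA) was in that of Acacb, at -34, and in 13.6% of all windows. The sterol regulatory element in the strict form TCACNCCAC, the E-box CACGTG, and direct repeats of AGGTCA spaced by 3 or by 4 bases, forms bound by the vitamin D receptor and by LXR, matched in none of the 13 windows. These letters were in 1.24%, 7.15%, 0.00609% and 0.0152% of all windows. The Elovl6 window held no match to any of the 7. A match is a description of letters and not a measured site.

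With 20(OH)D3 against vehicle, the pathway genes did not differ in 1 direction. The intervals of 5 lay wholly above 1, those of 2 lay wholly below 1, and those of 3 held 1. Of the 10 genes 7 stood above 1 and 3 below, with a median log2 normalized count ratio of 0.15, against a median of -0.03 over the 12923 loci that averaged at least 20 normalized counts, where 46.9% stood above 1. Only Thrsp was at least 1.5-fold higher, where 10.8% of loci were, and none was at least 1.5-fold lower, where 3.34% were. No gene passed 2-fold in either direction, against 4.18% of loci higher and 0.751% lower. In bulk tissue such as this, fewer cells of a type and less RNA per cell cannot be told apart.

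Thrsp had 1975 reads with 20(OH)D3 and 1344 with vehicle, a normalized count ratio of 1.64 (interval 1.53 to 1.76). Scd1 followed at 1.48 (1.45 to 1.51). Srebf1 had 1480 and 1137 reads, a ratio of 1.46 (1.35 to 1.57), and Acacb 1005 and 781 reads, a ratio of 1.44 (1.31 to 1.58). These 4 had the highest count ratios, and they comprise the Spot 14 protein, the desaturase, the regulator and a carboxylase. For Srebf1 and Acacb the FPKM ratios were smaller, 1.17 and 1.25. Fasn had a log2 ratio of 0.14, 1.099-fold higher (1.07 to 1.13). Its direction turned after rescaling FPKM to a fixed total per library (TPM), with a log2 ratio of -0.037. On that scale the median over all loci tested was -0.19. The intervals of Acaca (1.07, 0.989 to 1.15), Gpam (1.12, 0.916 to 1.37) and Me1 (0.985, 0.903 to 1.08) held 1. Elovl6 stood lower, with 278 reads with 20(OH)D3 and 453 with vehicle, 1.46-fold lower (1.25 to 1.70). Acly stood 1.26-fold lower (1.19 to 1.34), with 1875 and 2652 reads.

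With 25(OH)D3 against vehicle, most of the pathway stood higher. Of the 10 genes 9 were above 1 (52.1% of loci were) and the intervals of 8 lay wholly above 1. The median log2 normalized count ratio was 0.61, against 0.01 over all loci tested. Of the 10, 6 were at least 1.5-fold higher, where 4.14% of loci were, and 1 was at least 1.5-fold lower, where 2.8% were. The count of 6 fell to 4 with reads scaled to equal totals, where Acaca and Acacb were under 1.5-fold. Thrsp passed 2-fold, where 0.89% of loci did, and none was 2-fold lower, where 0.549% were.

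Thrsp had 2929 reads with 25(OH)D3 and 1344 with vehicle, a ratio of 2.34 (2.19 to 2.50), and 0.449% of loci had a ratio at least as high. The elongase Elovl6 came next, with 792 and 453 reads and a ratio of 1.88 (1.67 to 2.11), which 1.21% of loci reached. Me1, the NADPH-yielding malic enzyme, had 1795 and 1090 reads, a ratio of 1.77 (1.64 to 1.91). Scd1 had a ratio of 1.74 (1.70 to 1.77). These 4 supply reducing power, lengthen and desaturate the chain, or mark lipogenic cells.

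The carboxylases had ratios of 1.55 (1.45 to 1.66) for Acaca and 1.51 (1.37 to 1.65) for Acacb. Fasn lay just under 1.5-fold by counts, at 1.496 (1.46 to 1.54), and at 2.06 by FPKM. Acly had the smallest ratio among the enzymes that stood higher, 1.19 (1.13 to 1.25), with 2942 and 2652 reads, and 1.57 by FPKM. Srebf1 did not differ beyond counting error, with 1070 reads with 25(OH)D3 and 1137 with vehicle, a ratio of 1.01 (0.928 to 1.099). Gpam went the opposite way to the rest, with 100 and 202 reads, 1.88-fold lower (1.47 to 2.42), and 0.774% of loci had a ratio as low. Its value rests on few reads and on the 1 transcript span named above.

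Set side by side at the same dose and times, the compounds parted most on the elongase. Elovl6 had 278 reads with 20(OH)D3 and 792 with 25(OH)D3, 2.73-fold lower with 20(OH)D3 (2.38 to 3.14), and 0.170% of loci had a ratio as low. It stood below vehicle in the 20(OH)D3 library and above it in the 25(OH)D3 library, as did Acly, while Gpam stood below vehicle with 25(OH)D3 and had an interval that held 1 with 20(OH)D3. Of the 10 genes 8 were lower with 20(OH)D3, with 7 intervals wholly below 1 and a median log2 ratio of -0.48, against -0.02 over all loci, of which 47.3% stood higher. At least 1.5-fold lower were Elovl6, Me1 and Acly, 3 of 10, where 3.96% of loci were, and Elovl6 also passed 2-fold, where 0.766% did. Gpam was at least 2-fold higher, where 3.03% of loci were, and no other gene was 1.5-fold higher, where 9.24% were.

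Me1 had 960 reads with 20(OH)D3 and 1795 with 25(OH)D3, 1.79-fold lower with 20(OH)D3 (1.66 to 1.94). Acly was 1.505-fold lower (1.42 to 1.60), Acaca 1.45-fold (1.35 to 1.56), Thrsp 1.42-fold (1.34 to 1.51), Fasn 1.36-fold (1.33 to 1.398) and Scd1 1.17-fold (1.15 to 1.19). Acacb did not differ beyond counting error, with a ratio of 0.956 and an interval of 0.877 to 1.04. Srebf1 stood higher with 20(OH)D3 at 1.44 (1.33 to 1.56), although its FPKM ratio was 1.09. Gpam stood higher at 2.11 (1.65 to 2.705), with 202 and 100 reads. The regulator and the acyltransferase thus lay on the other side of 1 from the enzymes of the chain.

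**Figure D2:**
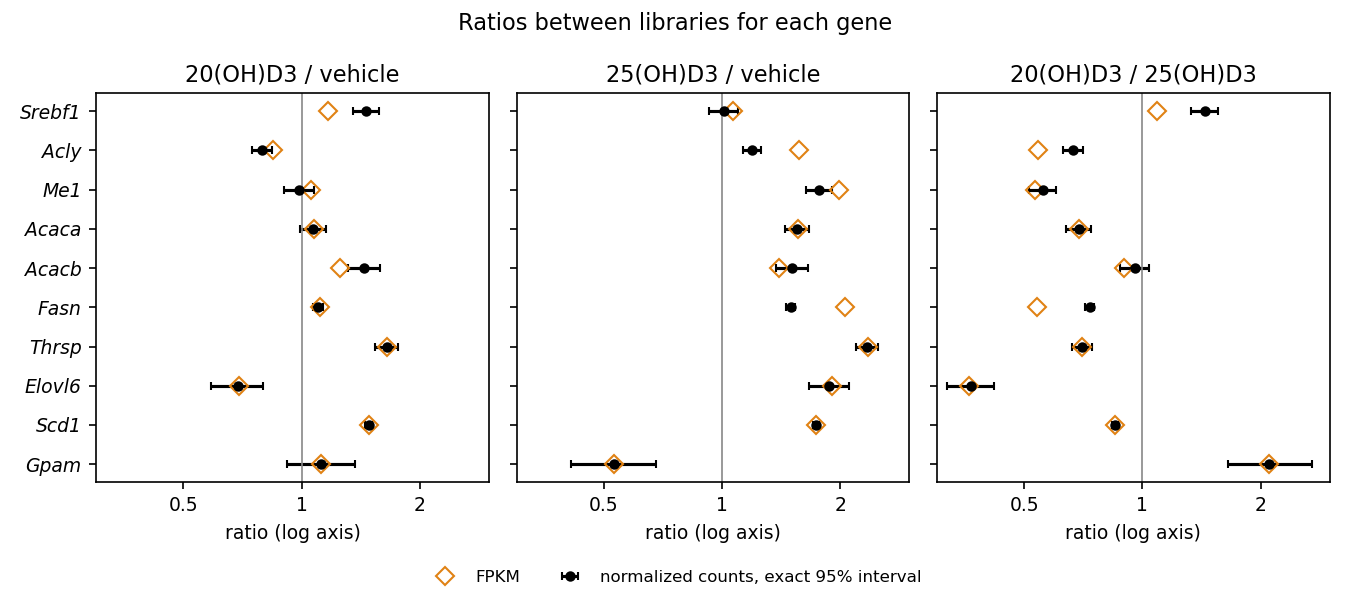
Ratio between libraries (log axis) for each gene in the 3 comparisons. Filled points with bars are normalized count ratios with exact 95% counting intervals, open diamonds are FPKM ratios, and the line marks 1. The points scatter about 1 with 20(OH)D3 over vehicle, lie mostly above 1 with 25(OH)D3 over vehicle, and put Elovl6 (0.366) and Gpam (2.11) at the ends of the comparison between compounds.

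Counts and FPKM agreed for some of the genes and not for others. The number of normalized counts behind 1 FPKM is set by transcript length, and for Scd1 it was 40.5, 40.5 and 40.6 in the 20(OH)D3, 25(OH)D3 and vehicle libraries. Scd1 and Gpam have 1 start site each in the deposited table. Fasn has 6, and its normalized counts per FPKM were 22.2, 16.4 and 22.5, so that the value with 25(OH)D3 was 0.727 of that with vehicle. Acly, also with 6 start sites, gave 22.1, 18.0 and 23.7 (0.760 of vehicle with 25(OH)D3). Srebf1, with 12, gave 25.6, 19.3 and 20.46 (1.25 of vehicle with 20(OH)D3). Acaca, with 6 start sites as well, stood at 0.992 of vehicle with 20(OH)D3 and 0.997 with 25(OH)D3. Use of transcripts was not tested.

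On the scale of FPKM + 1, with the same 12923 loci, 8 of the 10 genes stood above 1 with 20(OH)D3 over vehicle, where 48.5% of loci did. Of the 10, 1 (Thrsp) was at least 1.5-fold higher, where 9.41% of loci were, and 0 were 1.5-fold lower, where 2.45% were. None passed 2-fold, where 3.2% of loci were higher and 0.248% lower. With 25(OH)D3 over vehicle 9 stood above 1, where 54.9% of loci did. Of these, 7 were at least 1.5-fold higher (3.48% of loci), with Fasn and Acly in and Acacb out, and Gpam was 1.5-fold lower (1.55%). Fasn and Thrsp passed 2-fold (0.573%), and 0 were 2-fold lower (0.193%). Between the compounds 2 stood higher with 20(OH)D3, where 47% of loci did. Gpam was at least 1.5-fold higher (7.36%) and under 2-fold (1.86%), 4 were 1.5-fold lower with Fasn added (3.61%), and Elovl6 was 2-fold lower (0.348%).

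**Figure D3:**
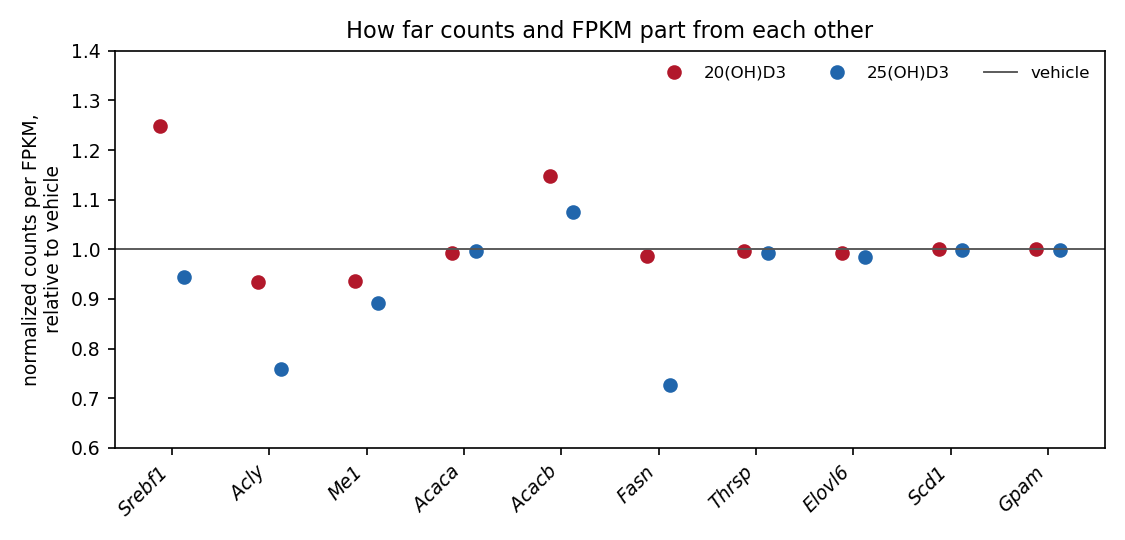
Normalized counts per FPKM of each gene relative to the vehicle library (line at 1), with 20(OH)D3 at the left and 25(OH)D3 at the right of each column. Scd1, Gpam, Thrsp, Elovl6 and Acaca lie near 1 in both libraries, Fasn (0.727) and Acly (0.760) lie low with 25(OH)D3, and Srebf1 (1.25) lies high with 20(OH)D3.

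Fat markers stood higher with both compounds than with vehicle. All 10 adipocyte markers were at least 2-fold higher with 20(OH)D3 than with vehicle, where 4.18% of all loci were. Their sum was 4.04-fold higher. With 25(OH)D3 over vehicle 2 of 10 were at least 2-fold higher, where 0.89% of all loci were. At 1.5-fold, 8 of the 10 were higher, where 4.14% of all loci were. Lep stood just below 1, and the sum was 1.89-fold higher. The summed brown fat markers were 3.56-fold higher with 20(OH)D3 and 4.14-fold higher with 25(OH)D3 than with vehicle. The summed synthesis genes were 1.29-fold and 1.61-fold higher. The part of fat content in these ratios was not tested.

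Divided by the summed adipocyte markers, every one of the 10 genes was lower with 20(OH)D3 than with vehicle. The marker sum was 4.04-fold higher and the highest gene ratio was 1.64 (Thrsp), so this direction followed from the divisor. Fasn had 97.3 normalized counts per 1000 adipocyte marker counts with 20(OH)D3, 284 with 25(OH)D3 and 358 with vehicle. Scd1 had 229, 574 and 625 in the same order, and Elovl6 had 2.78, 16.2 and 16.3. The median over the genes was 0.274 of vehicle with 20(OH)D3, from 0.170 for Elovl6 to 0.407 for Thrsp. With 25(OH)D3 the median was 0.809 of vehicle, with 9 of 10 genes below 1, from 0.281 for Gpam to 1.24 for Thrsp. This median, -0.31 in log2, became -0.088 with Adipoq alone and -0.024 with Plin1 alone. Genes below 1 were not counted with single markers. Between compounds the median was 0.336 for 20(OH)D3 over 25(OH)D3, with 10 of 10 below 1, and Gpam, at 0.984, was nearest to 1. There the marker sum ratio was 2.14 and the highest gene ratio 2.11 (Gpam), so this direction too followed from the divisor. Which cells of the node carry these messages cannot be read from bulk RNA.

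**Figure D4:**
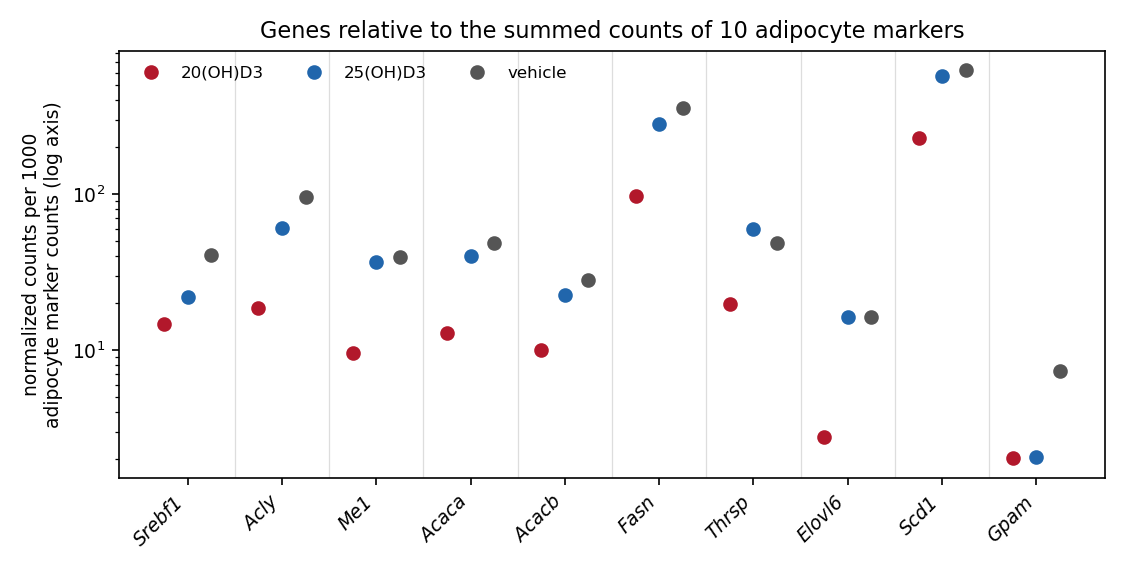
Normalized counts of each gene per 1000 normalized counts of the 10 summed adipocyte markers (log axis), with 20(OH)D3 at the left, 25(OH)D3 in the middle and vehicle at the right of each column. The 20(OH)D3 point is the lowest of every column (97.3 for Fasn), and the 25(OH)D3 point lies near or below vehicle for all genes other than Thrsp.

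Among regulators around SREBP1 and ChREBP, the median log2 ratio to vehicle was 0.11 with 20(OH)D3 and 0.28 with 25(OH)D3. By counts, 4 of 13 genes were at least 1.5-fold higher with 20(OH)D3 (10.8% of all loci were) and 3 with 25(OH)D3 (4.14% of all loci). None was, by counts, 1.5-fold lower with either (3.34% and 2.8% of all loci). Insig1, which holds SREBP in the endoplasmic reticulum and is itself a target of SREBP, stood at 28.9, 28.0 and 14.0 FPKM with 20(OH)D3, 25(OH)D3 and vehicle, with count ratios to vehicle of 2.07 (1.81 to 2.37) and 2.01 (1.76 to 2.30). Mlxipl, which encodes the glucose-responsive factor ChREBP, had ratios of 2.43 (1.93 to 3.06) and 2.68 (2.15 to 3.36). Its FPKM ratios were smaller, 1.48 and 1.94. Pparg, the master regulator of fat cells and also in the adipocyte list, had ratios of 4.89 and 3.03. Nr1h3, encoding LXR alpha, had 1.52 (1.32 to 1.76) with 20(OH)D3. Srebf2 (0.858 and 0.861) and Scap (0.833 and 0.841), the escort of SREBP, stood below vehicle with both compounds. The FPKM ratios of Scap were 0.505 and 0.644, past 1.5-fold lower in both. By counts Mbtps2, a protease that releases SREBP, was lowest with 25(OH)D3 at 0.811 (0.679 to 0.967).

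Genes of citrate and acetyl-CoA supply had median log2 ratios to vehicle of 0.45 with 20(OH)D3 and 0.64 with 25(OH)D3. The citrate carrier Slc25a1 had 1128 reads with 20(OH)D3, 1700 with 25(OH)D3 and 926 with vehicle, with ratios to vehicle of 1.36 (1.25 to 1.49) and 1.97 (1.82 to 2.14). Acss2, which makes acetyl-CoA from acetate, had ratios of 0.961 (0.847 to 1.09) and 1.57 (1.405 to 1.76), and was 1.63-fold lower with 20(OH)D3 than with 25(OH)D3. Of the 9 genes of citrate and acetyl-CoA supply, 4 were at least 1.5-fold higher with 20(OH)D3 than with vehicle, where 10.8% of all loci were, among them the mitochondrial pyruvate carrier subunits Mpc1 (2.74) and Mpc2 (2.12), and Aacs (2.00). With 25(OH)D3 over vehicle 5 were, where 4.14% of all loci were, among them Slc25a1, Mpc1 (1.85), Acss2 and Mpc2 (1.56). Acss1 was lowest in both, at 0.745 and 0.951.

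Of 9 genes of NADPH supply 8 averaged at least 20 normalized counts. Of these, Idh1, the cytosolic isocitrate dehydrogenase, was the only one past 1.5-fold, at 1.69 (1.52 to 1.88) with 20(OH)D3 over vehicle. Of all loci 10.8% were at least 1.5-fold higher with 20(OH)D3 and 4.14% with 25(OH)D3, and 3.34% and 2.8% lower. The transketolase Tkt was highest of the list with 25(OH)D3 at 1.46 (1.399 to 1.53) and stood at 1.02 (0.965 to 1.07) with 20(OH)D3. Me2, the mitochondrial relative of Me1, was lowest with 20(OH)D3 at 0.899, with an interval that held 1, and Mthfd1 with 25(OH)D3 at 0.836 (0.708 to 0.987).

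Most relatives of Elovl6 and Scd1 stood near vehicle. Of 17 genes of elongation and desaturation 11 passed the minimum, with median log2 ratios to vehicle of 0.04 with 20(OH)D3 and 0.08 with 25(OH)D3. The desaturase Scd2 had ratios of 0.977 (0.909 to 1.05) and 0.945 (0.880 to 1.01), set against 1.48 and 1.74 for Scd1. Near-identical stretches of the Scd genes can exchange reads. Elovl5, which lengthens polyunsaturated chains, had 1.03 (0.943 to 1.12) and 1.19 (1.09 to 1.29), and Elovl1 had 1.03 and 1.06. Elovl3, an elongase of brown fat that fell below the minimum, had 9 reads with 20(OH)D3, 27 with 25(OH)D3 and 6 with vehicle. Hacd2, a dehydratase of the elongation cycle, was at least 1.5-fold higher in both, at 2.90 (2.56 to 3.29) and 1.79 (1.57 to 2.06), and Fads3 with 20(OH)D3 at 1.59. Elovl7 with 20(OH)D3 (0.624, 0.362 to 1.05) and Fads2 with 25(OH)D3 (0.646, 0.455 to 0.910) were 1.5-fold lower, on 24 and 56 reads. Thus 2 of the 11 were 1.5-fold higher and 1 lower with 20(OH)D3, where 10.8% and 3.34% of all loci were. With 25(OH)D3 1 was higher and 1 lower, where 4.14% and 2.8% of all loci were.

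Of the glyceride assembly genes 12 of 15 stood higher with 20(OH)D3 than with 25(OH)D3, where 47.3% of all loci did. Of the 15 that passed the minimum, 7 were at least 2-fold higher with 20(OH)D3 than with vehicle (4.18% of all loci were) and 3 with 25(OH)D3 (0.89% of all loci). The acyl-CoA synthetase Acsl1 had ratios of 2.59 (2.47 to 2.71) and 1.62 (1.54 to 1.71), and Dgat2, which adds the last fatty acid of triglyceride, 2.19 (2.04 to 2.34) and 1.44 (1.34 to 1.55). Pnpla3, a target of SREBP1, had 3.38 (2.97 to 3.86) and 2.59 (2.27 to 2.97), the highest of the list in both. Agpat2 (2.704 and 2.18), Gpd1 (2.22 and 2.09), Dgat1 (2.30 with 20(OH)D3) and Mogat1 (2.83, on 43 and 17 reads) made up the rest. Between compounds Dgat1, Dgat2, Mogat1 and Acsl1 were at least 1.5-fold higher with 20(OH)D3, as were 9.24% of all loci. Of the 10 synthesis genes 3 were at least 1.5-fold lower, where 3.96% of all loci were. Gpam, which starts glyceride assembly, stood higher with 20(OH)D3, at 2.11. Lpin2 (0.765) with 20(OH)D3 and Acsl4 (0.897) with 25(OH)D3 were lowest against vehicle.

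**Figure D5:**
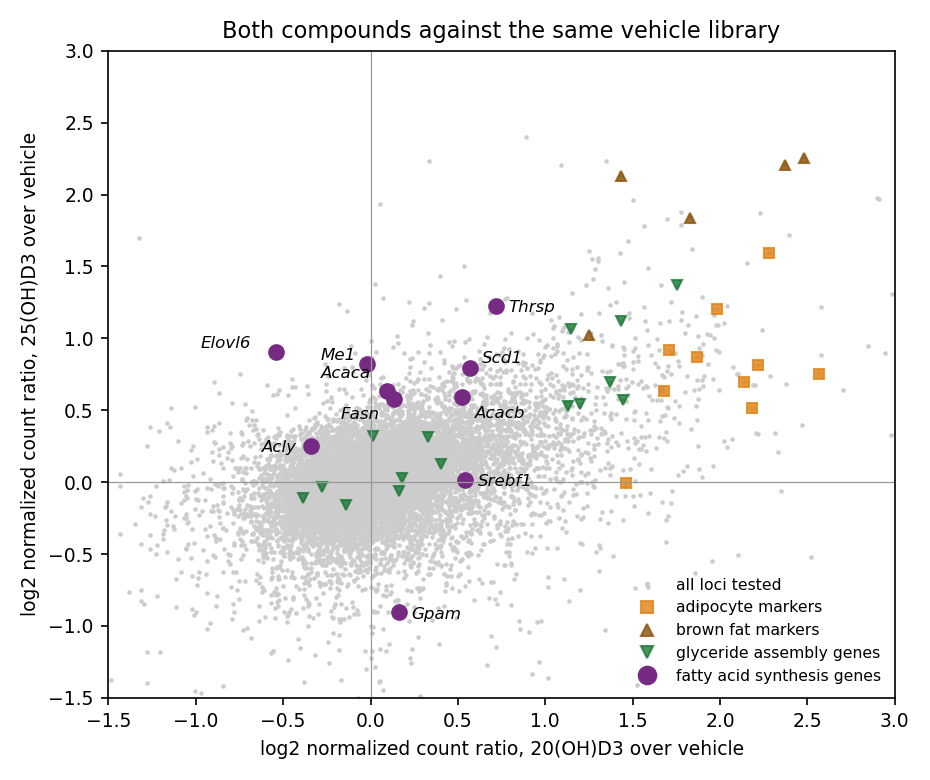
Log2 normalized count ratio to vehicle with 20(OH)D3 (x axis) and with 25(OH)D3 (y axis) for 12923 loci (grey, 28 of them outside the axes), the 10 synthesis genes (purple), adipocyte and brown fat markers and glyceride assembly genes. Both axes share the vehicle library. The synthesis genes lie left of the adipocyte markers, with Elovl6 at the upper left and Gpam at the bottom.

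On the side that burns fatty acids, Cpt1a, the gate of mitochondrial uptake that malonyl-CoA inhibits, stood below vehicle with both compounds, at 0.696 (0.628 to 0.770) and 0.663 (0.598 to 0.734), past 1.5-fold lower with 25(OH)D3. Acadm, a dehydrogenase of the oxidation cycle, stood at 1.95 (1.79 to 2.13) and 1.98 (1.82 to 2.16), and Cpt2, Acadm and Acadl, 3 of 7 genes of this list, were at least 1.5-fold higher in each, where 10.8% of all loci were with 20(OH)D3 and 4.14% with 25(OH)D3. Of 6 AMPK-related genes 5 passed the minimum, and none of these was past 1.5-fold in any of the 3 comparisons. Against vehicle, 10.8% of all loci were 1.5-fold higher and 3.34% lower with 20(OH)D3, and 4.14% and 2.8% with 25(OH)D3. Between compounds 9.24% were higher and 3.96% lower. Prkaa2 fell below the minimum, with 27 reads with 20(OH)D3 and 5 with vehicle, a ratio of 6.04 (2.29 to 20.1). The AMPK subunit Prkab1 was lowest with 20(OH)D3, at 0.746 (0.649 to 0.857), and the upstream kinase Stk11 highest with 25(OH)D3, at 1.21 (1.12 to 1.32). Of 5 measured genes of mitochondrial fatty acid synthesis all 5 stood above vehicle with both compounds, where 46.9% and 52.1% of all loci did. The acyl carrier protein Ndufab1 was highest, at 1.86 (1.64 to 2.12) and 1.73 (1.52 to 1.98). The intervals of Oxsm held 1 with both (0.955 to 1.51 and 0.892 to 1.41), and that of Cbr4 did with 25(OH)D3 (0.939 to 1.51).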

How the data were processed

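Per the submitters' processing notes, the mouse build was GRCm38 and the tools included Cufflinks 2.2.1, STAR 2.7.0c, Cuffnorm and Cuffdiff. No role, setting or annotation is named in the sources used here. In FPKM, the deposited table scales fragments by transcript length and depth, for each locus and library. Beside it the authors deposited a normalized count signal. That signal behaves as whole reads times a library factor of 1.05 (20(OH)D3), 1.01 (25(OH)D3) or 0.938 (vehicle), and 99.9% of loci in each library came out whole within 0.02. With a factor near 1, the recovery is less certain for 25(OH)D3. As given here, 2 lines of the table hold no values.

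Members and lists were chosen with earlier results of these data known. For a member in several rows the highest mean FPKM was to be used. Ratios are of normalized counts. Intervals are exact (Clopper-Pearson on the share of both libraries' reads, scipy 1.17.1), and sequenced reads may repeat molecules. Log2 ratios add 1. Loci averaging at least 20 normalized counts (12923) gave the background. No count model was fitted, as 1 library per group leaves no spread. Named are all members, the extremes of each list, list genes past 1.5-fold, and the 8 loci nearest in pattern to Fasn and Elovl6; Scd2, Elovl1, Elovl3, Elovl5 and Srebf2 were chosen after their values were seen. Whether counting used strand is not given. The procedure was tested on simulated data with counting error only, which cannot check the spread between animals. Gpat3 and Acsf3 were not analysed here, and the values of 1 list gene are not reported here.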

Additional observations from a re-analysis of the deposited data

How the results depend on the processing

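The median log2 ratio of the 10 genes was recomputed with FPKM, other pseudocounts, other scalings and without the gene on which counts and FPKM differed most. It ranged from 0.55 to 0.72 for 25(OH)D3 over vehicle and from -0.55 to -0.45 between the compounds, where rescaling FPKM to TPM gave -0.55. For 20(OH)D3 over vehicle it lay between 0.12 and 0.16, except that TPM turned it to -0.032, and the log2 ratio of Fasn to -0.037. TPM also moved the median over all loci to -0.19 for 20(OH)D3 and -0.12 for 25(OH)D3 against vehicle. The gene median and the ratio of Fasn are to be read against these. Under TPM 0 genes were at least 1.5-fold higher and 1 was lower with 20(OH)D3 over vehicle. With FPKM + 1, 2 genes were 2-fold higher with 25(OH)D3 over vehicle, and 0 were 2-fold higher with 20(OH)D3 over 25(OH)D3, as under TPM (0).

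Relative to Adipoq alone or Plin1 alone, the log2 of the median level was -1.99 and -1.53 for 20(OH)D3 over vehicle (-1.87 with all markers) and -0.088 and -0.024 for 25(OH)D3 over vehicle (-0.31 with all markers). Between compounds it was -1.91 with Adipoq alone and -1.69 on FPKM (-1.57 with all markers on counts). Of 210 single-gene ratios under 7 alternatives, 154 stayed within the counting interval and 56 moved outside it. The sign differed in 8, of which 7 belonged to ratios whose interval held 1 and the other was Fasn. The 8 were Fasn, Acaca and Gpam under TPM and Me1 on the FPKM scales for 20(OH)D3 over vehicle, and Srebf1 under TPM and equal totals for 25(OH)D3 over vehicle. The 6 genes at least 1.5-fold higher with 25(OH)D3 over vehicle became 4 with reads scaled to equal totals, 5 under the upper quartile, a pseudocount of 10 and TPM, and 7 with FPKM + 1. The shares of all loci depend on the filter. At a minimum of 100 normalized counts and with no filter, the share at least 1.5-fold higher was 2.37% and 7.60% for 25(OH)D3 over vehicle, and the share 1.5-fold lower was 1.11% and 6.99% for 20(OH)D3 over vehicle, 0.700% and 7.06% for 25(OH)D3 over vehicle, and 1.90% and 6.83% between compounds. The share 1.5-fold higher between compounds was 5.88% at the higher minimum. The 2-fold shares moved more. For 20(OH)D3 over vehicle they were 8.93% higher with no filter, and 0.0836% and 2.71% lower at the minimum of 100 and with no filter. For 25(OH)D3 over vehicle they were 0.376% and 5.18% higher, and 0.0836% and 2.46% lower. Between compounds they were 1.69% and 8.82% higher, and 0.136% and 4.85% lower. No paired analysis was possible because each group has 1 library. Spread between animals is not measured.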

Other observations

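The loci nearest to Fasn in their ratios of both compounds to vehicle were sought among 7444 loci averaging at least 200 normalized counts, over 3 libraries only. Likeness is the larger of the differences in log2 ratio. The nearest 8 were Kti12 (0.01), Nudt5 (0.01), Chkb with Cpt1b (0.04), Higd2a (0.05), Acaca (0.05), Dusp6 (0.06), Ndufa10 (0.07) and Mir142hg (0.08). Acaca, which makes the substrate of Fasn, was thus the fifth. With 3 libraries many loci share a pattern, and nothing on common control can be read from it.

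Elovl6 had no such near neighbour. The nearest of the same loci was Arrdc3, at a distance of 0.32, with log2 ratios to vehicle of -0.23 with 20(OH)D3 and 0.59 with 25(OH)D3, where Elovl6 had -0.54 and 0.91. The others were 2700016F22Rik (0.40), A130071D04Rik (0.43), Exosc1 (0.45), Tmod1 (0.45), Dusp5 (0.45), Mrps15 (0.46) and Socs6 (0.46).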
